A study of Mus musculus with 47 samples.

Results

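The genes described here are the nuclear genes of respiratory complex I and their namesakes: each protein-coding mouse gene in the deposited expression table whose symbol starts with Nduf. There were 46 of them among 13500 genes: 36 subunits of the complex, 8 assembly factors named Ndufaf, and Ndufa4 and Ndufa4l2, which carry the family's name but are not counted among the subunits. The symbol chose the members, and no measured value did. All 46 passed the filter on low values, and none was listed at 0 in any library.

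Complex I, or NADH dehydrogenase, is the largest enzyme of the mitochondrial respiratory chain. It takes electrons from NADH in its N module, passes them along iron-sulphur clusters to ubiquinone in its Q module, and couples this to proton pumping by a membrane arm. Most of its subunits are encoded in the nucleus and the others in mitochondrial DNA, and assembly factors put the modules together without staying in the finished enzyme. In skeletal muscle the complex is most abundant in oxidative fibres, where it feeds ATP synthesis during sustained contraction.

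The study measured RNA from tibialis anterior, a mostly fast-twitch leg muscle, of female C57BL/6 mice fed ad libitum, at zeitgeber time 0 (ZT0) and 12 (ZT12). Wild-type mice were sham-operated (WT sham), adrenalectomized on both sides (WT ADX), or adrenalectomized and injected at ZT12 for 10 days with adrenaline at 0.5 mg/kg (WT ADX+ADR) or dexamethasone, a synthetic glucocorticoid, at 5 mg/kg (WT ADX+DEX). RE-RE mice were sham-operated or adrenalectomized. They carry the allele pair Bmal1(stopFL/stopFL), in which a stop cassette blocks the clock gene Bmal1 throughout the body, and 1 copy each of the drivers Syt10-Cre(-/tg), which restores Bmal1 in brain, and Hsa-Cre(-/tg), which restores it in skeletal muscle fibres but not in the other cells of a muscle. Saline at 0.9% with glucose replaced aldosterone loss after adrenalectomy, there was no group injected with vehicle, and the labels give a recovery of 2 weeks whose place relative to the last injection is not clear. Each of the 12 groups had 4 mice, except WT ADX ZT0 with 3. Ages were 9 to 11 weeks in WT sham ZT0 and 10 to 12 in WT sham ZT12, 12 to 15 and 13 to 17 in WT ADX, 14 and 13 to 14 in WT ADX+ADR, 11 to 14 and 14 in WT ADX+DEX, 9 to 14 and 11 to 14 in RE-RE sham, and 8 to 15 and 12 to 18 in RE-RE ADX. The ages of WT sham and WT ADX mice did not overlap at either time.

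Values are FPKM, fragments scaled to transcript length and to the mapped total of the library; changes are differences of the deposited log2 values. The fast-fibre myosin Myh4 averaged 7600 FPKM and was at least 5104 FPKM in every library, and the slow-fibre myosin Myh7 averaged 2.74 FPKM. Bmal1, listed as Arntl, stood at 16.8 ± 2.05 FPKM (SD, n = 4) in WT sham ZT0 and 14.4 ± 0.791 (n = 4) in RE-RE sham ZT0. The libraries did not all carry the same mark of processing: 40 of the 47 shared 25 to 103 exact values below 1 FPKM with another library of their group, and 7 shared at most 1. Those 7 are WT sham ZT0 replicate 4, WT sham ZT12 replicate 8, RE-RE sham ZT0 replicate 2 and ZT12 replicate 6, RE-RE ADX ZT0 replicates 1 and 4, and RE-RE ADX ZT12 replicate 5; none is a WT ADX library. Counts of called subunits are given with and without these libraries in the comparisons that hold some of them, as are calls that a gene described in a comparison lost without them; levels and the counts by module and of other gene lists were not repeated. The depth behind each value is unknown, and whether libraries were adjusted to one another is not given in the sources used here. Nothing in the labels says whether the mice of a group shared a litter or a day, so p-values measure only the spread between these samples.

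Complex I genes were among the well-expressed genes of the muscle. Mean levels over all libraries ran from 8.18 FPKM (Ndufb2) to 515 FPKM (Ndufb9) among the 36 subunits, with a median of 114 FPKM. Ndufs7, which holds the terminal iron-sulphur cluster, averaged 141 FPKM; Ndufs1, the largest subunit of the N module, averaged 73.6 FPKM. The 8 assembly factors lay lower, from 6.95 FPKM (Ndufaf3) to 30.2 FPKM (Ndufaf1). Ndufa4, a protein now assigned to complex IV, had the highest mean of all members, 689 FPKM, and its relative Ndufa4l2, a gene induced by hypoxia, had 9.2 FPKM. Levels per length depend on the transcript model: Ndufb2 and Ndufab1, the mitochondrial acyl carrier protein, had the lowest 2 subunit means (8.18 and 13.4 FPKM) and have longest annotated transcripts of 4371 and 3479 bases, against a median of 977 bases over the subunits. Pseudogenes with family names were left out as members, among them Ndufs6b at 32.5 FPKM; in all, 26 of the 46 members shared no run of 60 bases, the read length, with any other annotated gene.

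Across the 12 groups the subunits followed a shared pattern with small amplitude, and the WT ADX groups were the low point of it. Each gene was set against its own mean over all libraries, and the median over the 36 subunits was taken in each group. This median deviation was -0.24 on the log2 scale in WT ADX ZT0 and -0.18 in WT ADX ZT12. In the other 10 groups it lay between -0.03 (RE-RE sham ZT0) and 0.13 (WT ADX+DEX ZT0). All 36 subunits were below their own mean in WT ADX ZT0 and 35 were in WT ADX ZT12, while in WT ADX+ADR ZT12 all 36 were above it. The lowest of the 12 group means fell in WT ADX ZT0 for 30 subunits, in WT ADX ZT12 for 4, and elsewhere for 2; the highest fell in WT ADX+DEX ZT0 for 16 and in WT ADX+ADR ZT12 for 9. From the lowest to the highest group the median span of a subunit was 1.32-fold, and the smallest was 1.15-fold (Ndufa2, an N-module accessory subunit).

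Single libraries showed the same order with some overlap. In WT ADX the library medians ran from -0.26 to -0.20 at ZT0 and from -0.26 to -0.11 at ZT12. Of the 40 libraries of the other conditions, 3 lay below the highest WT ADX library, and the lowest of these stood at -0.14. In WT sham the range was -0.13 to 0.10 at ZT0 and -0.01 to 0.12 at ZT12, in RE-RE ADX -0.14 to 0.04 and -0.08 to 0.13. In bulk muscle, fewer cells or fibres of a type and less RNA per cell cannot be told apart, and this holds for each difference below.

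**Figure D1:**
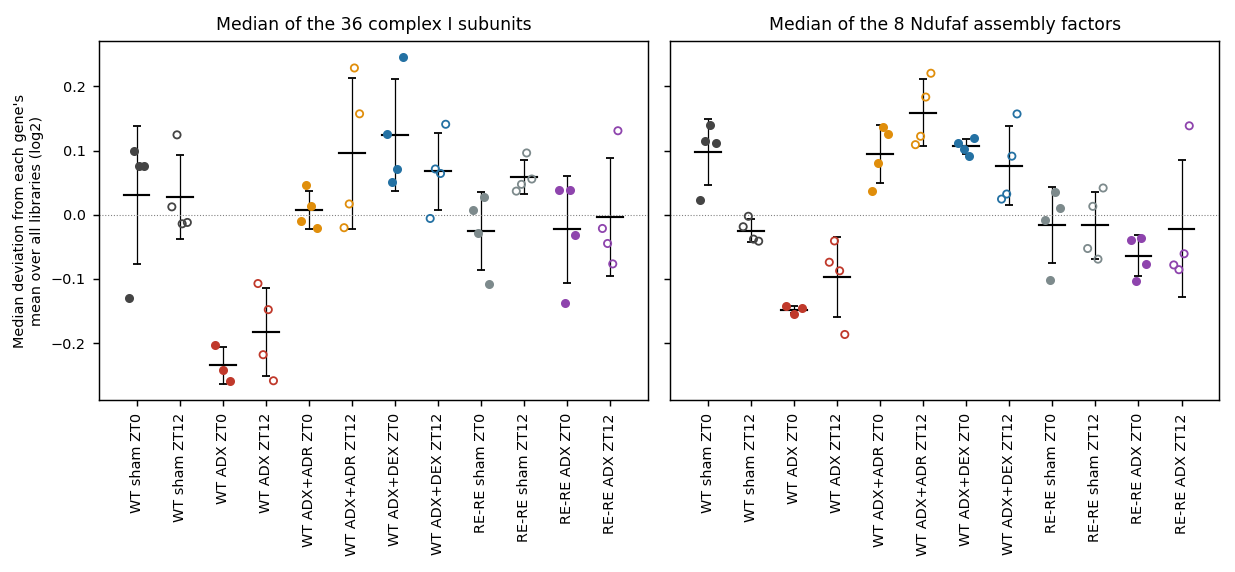
Median deviation from each gene's mean over all libraries (log2, vertical axis) in each of the 47 libraries, by group, for the 36 subunits (left) and the 8 assembly factors (right); filled points are ZT0, open points ZT12, the bar is the group mean and the error bar the SD. In the left panel the 7 WT ADX libraries lie between -0.26 and -0.11, and 3 of the other 40 lie below the highest of them.

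**Figure D2:**
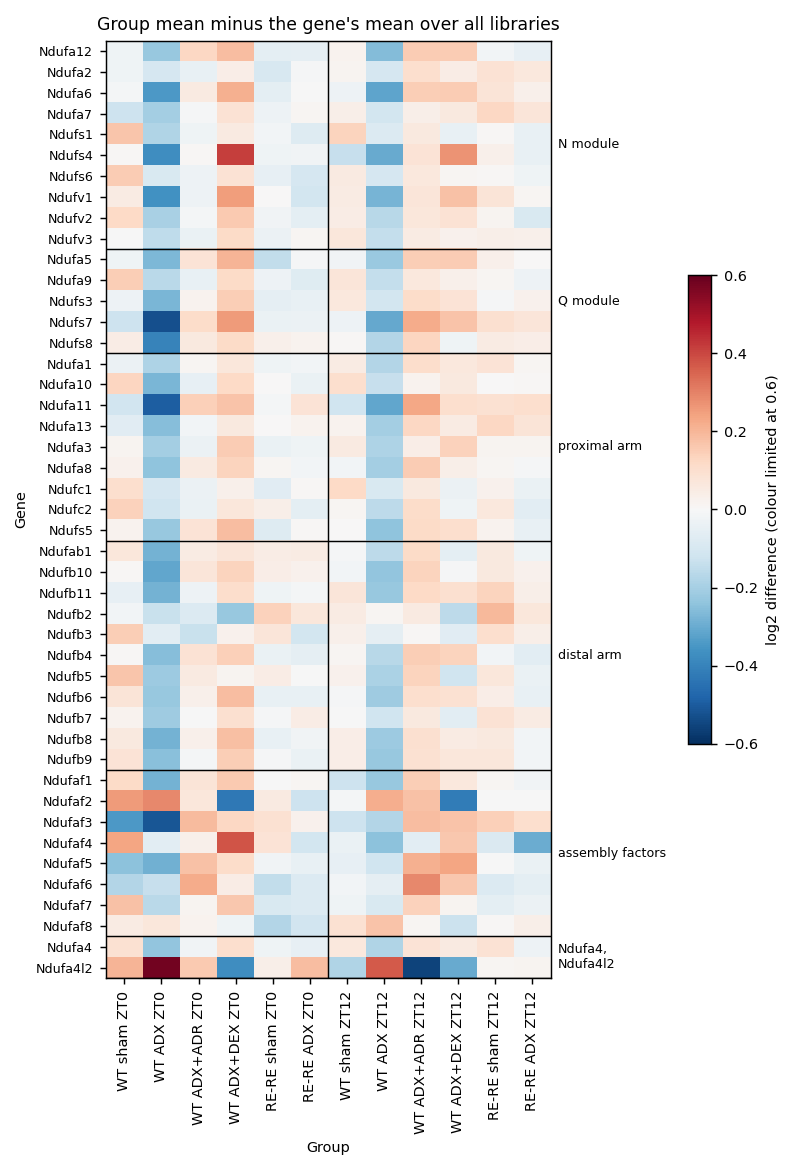
Group mean minus the gene's mean over all libraries (log2, colour limited at 0.6 in either direction) for 45 members (vertical axis, by role) in the 12 groups (horizontal axis). The WT ADX columns are low for nearly all subunits, with every subunit drawn below its mean at ZT0, and Ndufa4l2 runs the other way.

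The first comparison asks what loss of the adrenal glands does in wild-type muscle. At ZT0, 30 of the 36 subunits fell in WT ADX and none rose (limma, adjusted p under 0.05), where 19.4% of the 12000 tested genes fell and 32.0% were called in either direction. At ZT12, 28 fell and none rose, against 16.6% of tested genes that fell and 26.9% called in either direction. The median subunit change was -0.27 on the log2 scale at ZT0 and -0.21 at ZT12, and that of all tested genes was -0.02 at both times. The changes of all 36 subunits were below 0 at both times. The libraries of the groups did not overlap for 28 subunits at ZT0, where 17.7% of tested genes were lower without overlap, and for 27 at ZT12 (14.8%). Without the 7 libraries set apart, 24 subunits fell at ZT0 (median -0.26) and 21 at ZT12 (median -0.22), and none rose. With age as a covariate the number that fell at ZT12 was 7, with a median change of -0.14.

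The falls covered every part of the enzyme. In the Q module, all 6 subunits fell at both times. In the N module, 7 of 10 fell at each time. In the proximal membrane arm, 7 of 9 fell at ZT0 and 8 at ZT12, and in the distal arm 10 of 11 and 7. Below the test at ZT0 were Ndufa3 (-0.22), Ndufv3 (-0.15), Ndufa1 (-0.15), Ndufb2 (-0.12), Ndufa7 (-0.08) and Ndufa2 (-0.08). At ZT12 they were Ndufa1 (-0.22), Ndufs6 (-0.16), Ndufab1 (-0.15), Ndufa7 (-0.14), Ndufa2 (-0.11), Ndufb7 (-0.11), Ndufb3 (-0.08) and Ndufb2 (-0.04). Ndufa1, Ndufa2, Ndufa7 and Ndufb2 thus passed at neither time.

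Subunits of the catalytic core, which bind NADH, the iron-sulphur clusters and ubiquinone, were among those that fell at both times. Ndufs7 (ENSMUSG00000020153, chr10:80249121-80256794, + strand, GRCm38) stood at 118, 135, 134 and 126 FPKM in WT sham ZT0 and at 104, 94.5 and 91.5 in WT ADX ZT0. It fell by 0.41 ± 0.06 (log2, SE; adjusted p = 6.09e-06), with no overlap, and by 0.27 ± 0.06 at ZT12, from 132, 144, 131 and 139.6 to 116, 118, 109 and 108 FPKM. Ndufs8 (ENSMUSG00000059734, chr19:3908863-3912774, - strand), which carries a pair of iron-sulphur clusters between the modules, had 129, 145, 149 and 150.0 FPKM in WT sham ZT0 and 104, 105 and 106 in WT ADX ZT0, groups that did not overlap (-0.45 ± 0.06; adjusted p = 2.49e-07). At ZT12 its change was smaller, -0.18 ± 0.05, from 140.1, 148, 137 and 134 to 127, 121, 122 and 121 FPKM.

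In the N module, Ndufv1 (ENSMUSG00000037916, chr19:4007384-4012806, - strand), the subunit that binds NADH and FMN, stood at 164, 170.4, 177 and 180.2 FPKM in WT sham ZT0 and 134, 119 and 137 in WT ADX ZT0. It fell by 0.41 ± 0.06 (adjusted p = 1.23e-06) without overlap. At ZT12 the values were 185, 176, 166 and 165 against 147, 138, 129 and 137 FPKM, a fall of 0.33. Its partner Ndufv2 (ENSMUSG00000024099, chr17:66078638-66101559, - strand), an iron-sulphur subunit, went from 183, 189.8, 197 and 191 to 156, 148 and 156 FPKM at ZT0 (-0.31 ± 0.07). Ndufs1 (ENSMUSG00000025968, chr1:63143596-63176833, - strand), which holds several of the clusters, went from 84.9, 79.9, 84.5 and 80.3 to 65.2, 64.2 and 65.1 FPKM at ZT0 (-0.35 ± 0.06), with all 3 WT ADX libraries below the 4 sham libraries for both genes. At ZT12 Ndufv2 fell by 0.21 ± 0.06 and Ndufs1 by 0.21 ± 0.05. Ndufs3 (ENSMUSG00000005510, chr2:90894634-90904827, - strand), a Q-module subunit around which the peripheral arm is built, went from 47.9, 56.2, 51.7 and 51.4 to 42, 42.9 and 46.3 FPKM at ZT0 (-0.24 ± 0.06; adjusted p = 0.00141) and fell by 0.17 ± 0.05 at ZT12 (adjusted p = 0.0566 without the libraries set apart). Among the accessory subunits Ndufa10, which resembles a nucleoside kinase, had an adjusted p of 1.01e-07 at ZT0: it went from 103, 105, 108 and 105 to 78.2, 80.2 and 80.5 FPKM without overlap (-0.40 ± 0.05). At ZT12 Ndufb11, a distal-arm subunit, fell by 0.30 ± 0.06 (adjusted p = 0.000135).

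**Figure D3:**
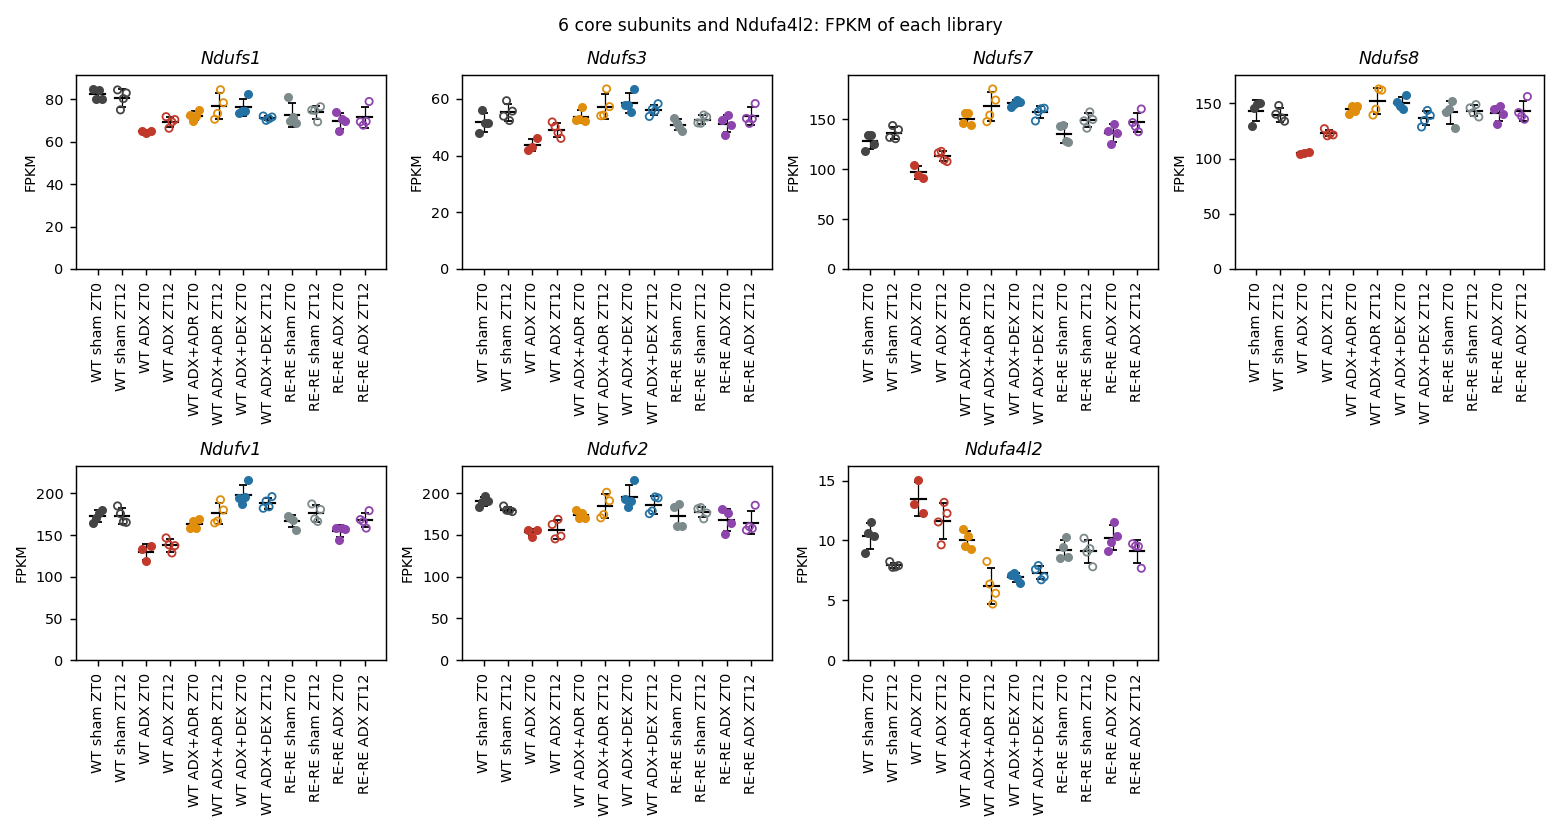
FPKM (vertical axis, from 0) of 6 nuclear core subunits and Ndufa4l2 in every library, by condition; filled points are ZT0, open points ZT12, the bar is the group mean and the error bar the SD. In WT ADX ZT0, Ndufs7 lies between 91.5 and 104 FPKM, below all 4 WT sham ZT0 libraries.

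Promoters of 5 core subunits are shown because these genes fell together, with that of Ndufb2, the subunit whose group means were least like the others. Each is the 300 bases from 250 before to 50 after the annotated start, from RefSeq on GRCm38.p6, written 5′ to 3′ on the gene's strand. Capitals mark matches, on either strand, to letters searched for factors known at mitochondrial genes: CCGGAAG for the ETS family, to which GABPA belongs, AANATGGC for YY1, GCGC and TGCGC with any base between them for NRF1, TNAAGGTCA for the estrogen-related receptors, and also the E-box CACGTG, bound by BMAL1 with CLOCK, and GNACA and TGTNC with 3 bases between them for the glucocorticoid receptor. Ndufs3 (chr2:90904672-90904971 on the - strand) holds a pair of ETS matches, Ndufs7 (chr10:80249199-80249498 on the + strand) a YY1 match after the annotated start, Ndufs8 (chr19:3912725-3913024 on the - strand) YY1 and ETS matches, Ndufv1 (chr19:4012706-4013005 on the - strand) an E-box, and Ndufv2 (chr17:66101510-66101809 on the - strand) and Ndufb2 (chr6:39592315-39592614 on the + strand) none of these.
Ndufs3: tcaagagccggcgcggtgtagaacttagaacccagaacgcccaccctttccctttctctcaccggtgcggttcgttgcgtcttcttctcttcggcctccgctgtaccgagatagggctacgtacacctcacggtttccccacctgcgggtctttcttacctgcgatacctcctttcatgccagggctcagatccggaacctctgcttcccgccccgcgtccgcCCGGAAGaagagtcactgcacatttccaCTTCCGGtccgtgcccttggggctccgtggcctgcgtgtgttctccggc
Ndufs7: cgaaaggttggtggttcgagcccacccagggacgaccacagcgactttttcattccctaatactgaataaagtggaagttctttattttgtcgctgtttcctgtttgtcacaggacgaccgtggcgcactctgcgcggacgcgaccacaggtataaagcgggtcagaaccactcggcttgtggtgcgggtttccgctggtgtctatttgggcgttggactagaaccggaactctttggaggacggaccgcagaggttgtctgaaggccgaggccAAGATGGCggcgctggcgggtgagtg
Ndufs8: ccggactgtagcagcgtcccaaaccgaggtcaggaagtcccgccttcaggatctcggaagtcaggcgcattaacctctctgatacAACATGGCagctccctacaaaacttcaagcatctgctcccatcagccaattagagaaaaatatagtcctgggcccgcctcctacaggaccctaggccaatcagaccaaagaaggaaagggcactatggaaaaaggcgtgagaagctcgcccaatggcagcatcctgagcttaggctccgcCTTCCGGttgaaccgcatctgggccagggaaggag
Ndufv1: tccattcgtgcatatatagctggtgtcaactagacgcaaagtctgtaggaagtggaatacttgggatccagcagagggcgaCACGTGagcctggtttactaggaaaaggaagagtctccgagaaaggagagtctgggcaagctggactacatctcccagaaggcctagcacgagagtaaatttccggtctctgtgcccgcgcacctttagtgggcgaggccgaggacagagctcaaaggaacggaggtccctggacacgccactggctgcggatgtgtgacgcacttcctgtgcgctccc
Ndufv2: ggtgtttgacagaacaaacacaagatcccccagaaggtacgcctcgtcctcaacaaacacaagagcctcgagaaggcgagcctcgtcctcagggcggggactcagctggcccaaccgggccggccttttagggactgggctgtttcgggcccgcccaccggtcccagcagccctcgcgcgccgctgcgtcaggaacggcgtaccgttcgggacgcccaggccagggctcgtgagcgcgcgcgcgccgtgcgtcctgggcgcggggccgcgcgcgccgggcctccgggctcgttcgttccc
Ndufb2: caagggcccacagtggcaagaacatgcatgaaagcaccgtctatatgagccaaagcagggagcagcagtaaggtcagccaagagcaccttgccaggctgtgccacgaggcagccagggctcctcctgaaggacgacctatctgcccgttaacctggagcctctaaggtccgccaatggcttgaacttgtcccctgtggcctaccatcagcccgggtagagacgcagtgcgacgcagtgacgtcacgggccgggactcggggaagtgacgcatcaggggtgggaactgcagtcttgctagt

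Promoters were matched for 40 of the 46 members, 32 of them subunits. The YY1 letters occurred in 11 of the 32 subunit promoters (34.4%) and in 6.23% of all 27025 promoters of this length; since these letters contain ATG, a match can also be a start codon. The NRF1 letters occurred in 7 (21.9%, against 4.78%), the ETS letters in 4 (12.5%, against 9.12%), the receptor letters TNAAGGTCA in 1 (3.12%, against 1.26%), and at least 1 of these 4 motifs in 20 of the 32, against 19.0% of all promoters. The other 12 included Ndufa10, Ndufa12, Ndufa13, Ndufc2, Ndufv1 and Ndufv2, which fell in WT ADX at both times, and Ndufa1, Ndufa7, Ndufab1, Ndufb2, Ndufb3 and Ndufv3, which fell at 1 time or at neither. The E-box was in 2 subunit promoters, those of Ndufv1 and Ndufa7 (6.25%, against 7.24%), and the glucocorticoid receptor letters in none (0.463% of all promoters). Base composition was not matched between these sets. A match is a description of the letters, and no match says only that these letters are not in this window.

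Other measures moved with the WT ADX libraries. The summed FPKM of 10 slow and oxidative fibre markers was 1151 to 1696 in WT ADX ZT0 against 3059 to 4270.4 in WT sham ZT0, and 861 to 1669 against 2075 to 3705 at ZT12. Of the 10, 4 fell at both times, where 19.4% of tested genes fell at ZT0 and 16.6% at ZT12. They were Myh2, the myosin of oxidative fast fibres, Mb, myoglobin, Myoz2, and Myl2, which was listed at 0 in every WT ADX library. Mb had the highest mean of the 10, 2578 FPKM over all libraries, then Myh2 with 312 FPKM, so the sum mostly follows Mb. The sum of 10 endothelial markers was 226 to 279.8 against 169.6 to 188 FPKM at ZT0, where 7 rose and 1 fell, against 12.6% of tested genes that rose, and 222 to 233 against 143 to 154 at ZT12, where 8 rose and 1 fell (10.3% of tested genes rose). Of 10 macrophage markers 5 rose at ZT0 (sums 37.1 to 81.8 against 27.3 to 36.8 FPKM), and at ZT12 the sums overlapped, 23.4 to 34.4 against 23.3 to 25.9. The sums of 11 fast-fibre markers overlapped at ZT0, 79504 to 102805 against 81461 to 92536 FPKM, with 1 member up and 1 down. At ZT12 they were lower in WT ADX with a small overlap, 92141 to 101408 against 100614 to 113925 FPKM. Acta1, an actin of all skeletal muscle fibres, had the highest mean of the 11, 19718 FPKM, so these sums do not follow fast fibres alone. The part of these markers in the subunit changes was not tested.

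Nnt, a mitochondrial transhydrogenase that is deleted in the substrain C57BL/6J, was given as 0 FPKM in the 7 WT ADX libraries and in 2 of the WT sham ZT12 libraries, and stood at 4.97 to 27.1 FPKM in the other 38. The labels give the strain as C57BL/6 with no substrain. In those 2 sham libraries, replicates 6 and 7, the median subunit deviation was 0.12 and -0.01, above all 7 WT ADX libraries. Wdfy1, another gene known to differ between substrains, stood at 0.0574 to 0.622 FPKM in WT ADX and at 1.8 to 4.11 FPKM in WT sham. In WT sham ZT12 replicates 6 and 7 it stood at 4.11 and 2.16 FPKM, so these 2 libraries were like WT ADX in Nnt but not in Wdfy1. With Nnt at 0 in every WT ADX library, adrenalectomy and any difference in the origin of these mice cannot be told apart in comparisons with WT ADX.

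**Figure D4:**
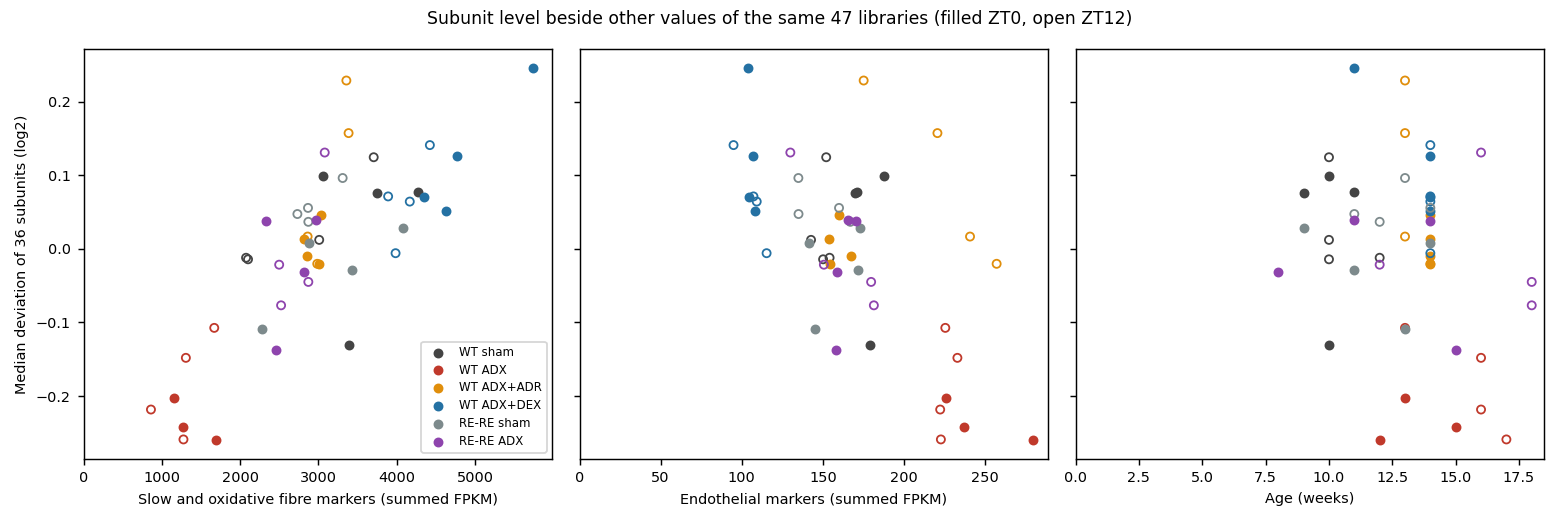
Median deviation of the 36 subunits (log2, vertical axis) in each library against the summed FPKM of 10 slow and oxidative fibre markers, the summed FPKM of 10 endothelial markers and age in weeks (horizontal axes), coloured by condition; filled points are ZT0, open points ZT12. The 7 WT ADX libraries have the lowest slow-marker sums, 861 to 1696 FPKM, and are 12 to 17 weeks old. Mb, myoglobin, had the highest mean of the 10 slow markers, 2578 FPKM.

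In RE-RE mice, adrenalectomy was not followed by a called change of any subunit. At ZT0, limma called 0 of 36 (2 at unadjusted p under 0.05), where 5.45% of tested genes were called, and the median change was 0.00, from -0.18 to 0.14. At ZT12 it again called 0 (3 at unadjusted p under 0.05; 5.32% of tested genes), with a median of -0.05 and 32 of 36 changes below 0. With the libraries set apart left out it called 0 at ZT0 (median -0.02) and 0 at ZT12 (median -0.05). Ndufs7 overlapped between the groups, with 143, 144, 128 and 127 FPKM in RE-RE sham ZT0 and 138, 125, 146 and 136 in RE-RE ADX ZT0 (0.01 ± 0.06; adjusted p = 0.967), and at ZT12 it had 148, 141, 157 and 149.8 against 147, 143, 138 and 160.3 FPKM (-0.02 ± 0.06; adjusted p = 0.864). The SE of a subunit's change in these comparisons was 0.0455 to 0.0891.

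The difference between the genotypes was tested directly, as the adrenalectomy change in RE-RE minus that in wild type over both times. It was above 0 and past the test for 28 of 36 subunits and below 0 for none, against 13.8% of tested genes higher and 22.5% called in either direction, with a median of 0.22. Without the 7 libraries set apart above, 3 of which are RE-RE ADX libraries, 12 subunits were called, all above 0, and the median over the 36 was 0.21. The difference was 0.30 ± 0.05 for Ndufa10 (adjusted p = 1.23e-05), 0.34 ± 0.06 for Ndufa11, a membrane-arm subunit, 0.33 ± 0.06 for Ndufs7 and 0.31 ± 0.05 for Ndufs8 (adjusted p = 7.08e-05). All 6 Q-module subunits, 7 of 10 N-module, 6 of 9 proximal and 9 of 11 distal subunits were called. Ndufb2 (-0.02) and Ndufb3 (0.03) had the smallest differences. In RE-RE ADX the slow-marker sums were 2332 to 3080 FPKM, and Nnt stood at 8.11 to 22.2 FPKM. Of the 10 slow markers 2, Tnni1 and Tnnc1, were lower than in RE-RE sham at ZT12, where 3.55% of tested genes fell. Both are low, with means of 1.17 and 4.95 FPKM over all libraries, and add little to the sums. The part of the slow markers and of Nnt in the genotype difference was not tested.

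**Figure D5:**
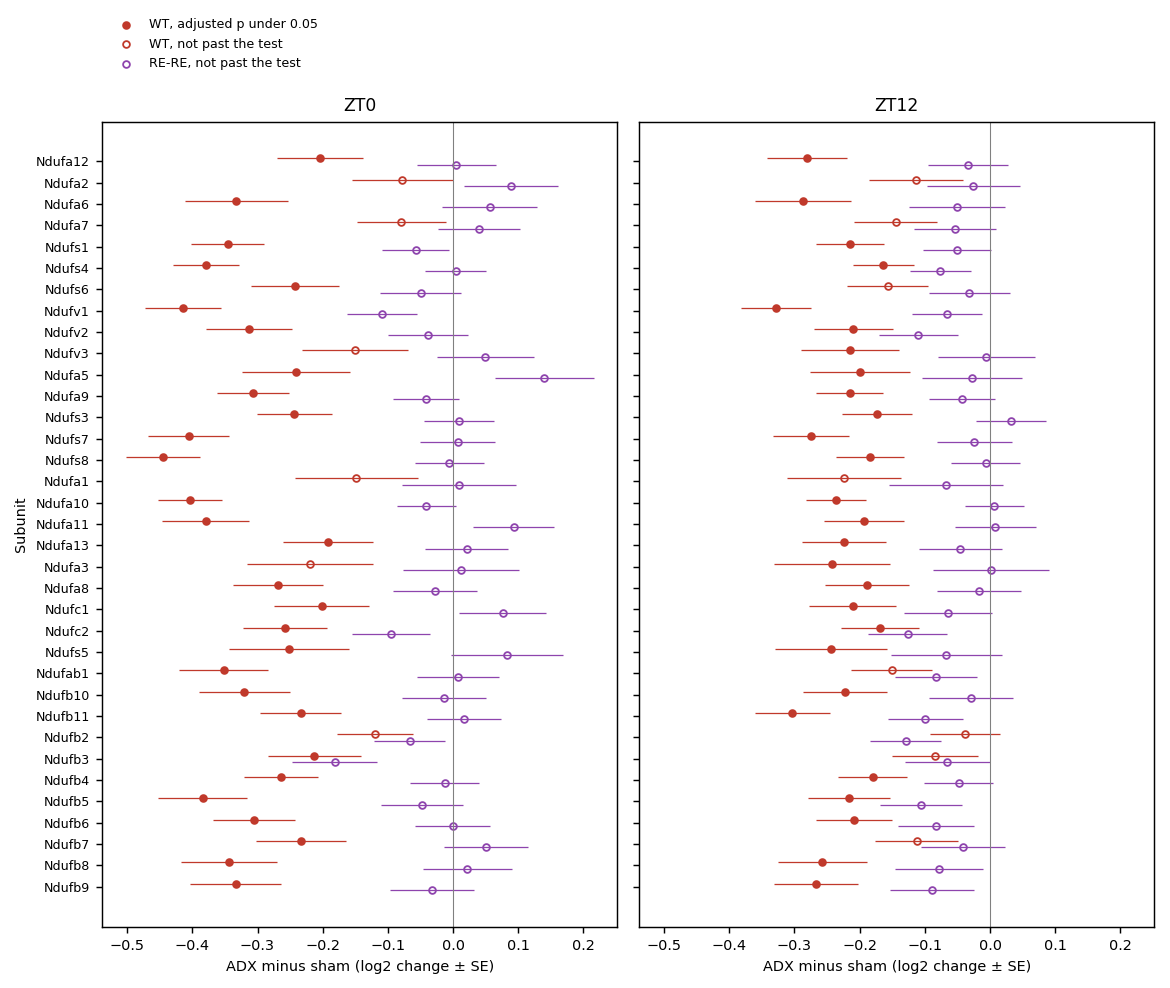
Change after adrenalectomy (log2, horizontal axis; error bars are SE) of 35 subunits (vertical axis, by module) in wild-type (red) and RE-RE (purple) mice at ZT0 and at ZT12; filled points passed the test and open points did not. The wild-type subunit points lie left of 0 at both times, with medians over all 36 of -0.27 and -0.21, and the RE-RE medians are 0.00 and -0.05.

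Adrenaline and dexamethasone were each compared with adrenalectomy alone, and both comparisons share the WT ADX libraries with the one above. With adrenaline, 26 subunits rose and none fell at ZT0, where 26.8% of tested genes rose (51.1% in either direction), and 33 rose and none fell at ZT12 (27.7% rose, 53.0% in either direction). The median was 0.26 at ZT0 and 0.31 at ZT12. With dexamethasone, 32 rose and none fell at ZT0 (36.4% of tested genes rose, 68.9% in either direction; median 0.38). At ZT12, 27 rose and 1, Ndufb2, fell by 0.17 ± 0.05 (34.6% rose, 66.3% in either direction; median 0.24). These backgrounds are wide, so a single call in these comparisons says little about a gene.

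Ndufs7 stood at 146, 156, 156 and 144 FPKM with adrenaline and at 162, 166, 169 and 167 with dexamethasone at ZT0, against 91.5 to 104 in WT ADX, and rose by 0.64 ± 0.06 and 0.78 ± 0.06. Ndufs4, an N-module subunit placed near the Q module whose loss causes Leigh-like disease in mice, stood at 62.8, 69.3 and 67.8 FPKM in WT ADX ZT0, 86.7, 87.8, 83 and 89 with adrenaline and 117, 109, 111 and 123 with dexamethasone. Its rise was 0.38 ± 0.05 with adrenaline and 0.79 ± 0.05 with dexamethasone, and the groups did not overlap. Ndufa11 rose by 0.63 ± 0.07 and 0.66 ± 0.07 at ZT0. Ndufs1 rose by 0.16 ± 0.06 and 0.23 ± 0.06 at ZT0, and at ZT12 by 0.14 ± 0.05 with adrenaline, while with dexamethasone its difference was 0.04 ± 0.05 (adjusted p = 0.564). With adrenaline at ZT12, Ndufs7 rose by 0.53 ± 0.06, Ndufa11 by 0.55 ± 0.06, Ndufa6 by 0.46 ± 0.07 and Ndufs4 by 0.38 ± 0.05; with dexamethasone, Ndufs4 rose by 0.57 ± 0.05, Ndufs7 by 0.48 ± 0.06 and Ndufv1 by 0.45 ± 0.05. The difference between the agents was not tested here. Nnt was at 9.86 to 15.4 FPKM in the treated mice and at 0 in WT ADX, and the slow-marker sums were 2811 to 3384 FPKM with adrenaline and 3889 to 5743 with dexamethasone.

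Against WT sham over both times, the treated groups differed in both directions, and with each agent a smaller share of the subunits than of all tested genes was called. With adrenaline 7 subunits were higher and 4 lower (median 0.03), where 54.5% of tested genes were called: Ndufa11 (0.30), Ndufs7 (0.24), Ndufa12, Ndufa5, Ndufa6, Ndufb4 and Ndufs4 were higher, and Ndufb3 (-0.15), Ndufs1 (-0.13), Ndufa10 and Ndufa9 lower. Leaving out WT sham ZT0 replicate 1, or WT ADX+ADR ZT12 replicate 7, gave 5 higher and 6 lower, and leaving out the libraries set apart gave 5 and 4. With dexamethasone 13 were higher and 5 lower (median 0.07; 69.6% of tested genes called). Ndufs4 (0.41 ± 0.03) and Ndufs7 (0.29 ± 0.04) were among those higher, and Ndufb2 (-0.21), Ndufb5 (-0.15), Ndufs1 (-0.15), Ndufb3 (-0.11) and Ndufc1 (-0.11) were lower. Without the libraries set apart 10 were higher and 3 lower; Ndufb3 (adjusted p = 0.0555) and Ndufc1 (adjusted p = 0.0681) then missed the test. These comparisons share the WT sham libraries with the adrenalectomy comparison.

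Between genotypes the subunits differed little in sham mice. At ZT0, 1 was higher in RE-RE than in WT sham, Ndufb2 (0.15 ± 0.05), and 4 were lower, Ndufs6 (-0.20 ± 0.06), Ndufs1 (-0.18 ± 0.05), Ndufa9 (-0.17 ± 0.05) and Ndufa10 (-0.13 ± 0.05), against 24.1% of tested genes called. At ZT12, Ndufa11 (0.21 ± 0.06) and Ndufs4 (0.17 ± 0.05) were higher and none was lower (19.3% of tested genes). Both shares lie below the background. Without the 7 libraries set apart, 0 were called at ZT0 and 1 at ZT12. At ZT0, leaving out WT sham replicate 2 or RE-RE sham replicate 4 left 3, and at ZT12 leaving out WT sham replicate 7 left 1. Among adrenalectomized mice over both times, 31 subunits were higher in RE-RE than in WT and none lower (median 0.20; 55.2% of tested genes called; 26 higher and median 0.20 without the libraries set apart), with 0.49 ± 0.05 for Ndufa11, 0.44 ± 0.04 for Ndufs7, 0.30 ± 0.03 for Ndufs4 and 0.34 ± 0.05 for Ndufa6.

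Time of day left few marks on the subunits. Over the 6 conditions, 5 of 216 subunit results were called for ZT12 against ZT0, and the median change lay between -0.08 (WT ADX+DEX) and 0.08 (WT ADX+ADR). In WT sham, Ndufs4 fell by 0.14 ± 0.05 from ZT0 to ZT12, from 85.7, 87.4, 87.2 and 86 to 80.1, 77.6, 76.7 and 79 FPKM without overlap, and no other subunit was called (5 at unadjusted p under 0.05; 23.5% of tested genes). In WT ADX, Ndufs7 rose by 0.22 ± 0.06 and Ndufs8 by 0.22 ± 0.06 (11.0% of tested genes). In WT ADX+DEX, Ndufs4 fell by 0.14 ± 0.05 and Ndufs8 by 0.14 ± 0.05 (adjusted p = 0.0691 without the libraries set apart), against 27.8% of tested genes. With limma, 0 subunits were called in WT ADX+ADR (6 at unadjusted p under 0.05; 12.7% of tested genes), 0 in RE-RE sham (5; 10.8%) and 0 in RE-RE ADX (2; 0.775%). Changes, called or not, lay mostly on 1 side in some conditions: all 36 were above 0 in WT ADX+ADR, 35 in RE-RE sham, 32 in WT ADX and 27 in RE-RE ADX, while 34 were below 0 in WT ADX+DEX and 21 in WT sham. Leaving out the libraries set apart gave 0 in RE-RE sham and 0 in RE-RE ADX. The counts of calls rest on single libraries. In WT sham the number was 0 without ZT12 replicate 6 or without the libraries set apart, 2 without ZT0 replicate 3 or ZT12 replicate 5, and 3 without ZT0 replicate 1; without ZT12 replicate 7 it was 1 subunit, higher at ZT12. In WT ADX it was 4 without ZT0 replicate 1 and 1 without ZT0 replicate 2 or ZT12 replicate 5. In WT ADX+DEX it was 0 without ZT0 replicate 4 or ZT12 replicate 5, and 1 without ZT0 replicate 1 or ZT12 replicate 6. In WT ADX+ADR it was 3 without ZT12 replicate 5, and in RE-RE sham 1 without ZT0 replicate 1.

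The change of the time difference with adrenalectomy in wild type was called for 0 subunits by limma (5 at unadjusted p under 0.05; 1.54% of tested genes), for 1 without WT sham ZT0 replicate 1 or ZT12 replicate 6, and for 0 without the libraries set apart. The time difference under dexamethasone minus that under adrenalectomy alone was called for 5 subunits, all below 0 (17.2% of tested genes; median -0.10; 12 at unadjusted p under 0.05). They were Ndufs8 (-0.36 ± 0.08), Ndufs7 (-0.31 ± 0.09), Ndufs3 (-0.23 ± 0.08; adjusted p = 0.0769 without the libraries set apart), Ndufs4 (-0.21 ± 0.07) and Ndufa10 (-0.20 ± 0.07), 3 of them in the Q module. Ndufs8 stood at 104, 105 and 106 FPKM in WT ADX ZT0 and 127, 121, 122 and 121 at ZT12, and at 151, 148, 145 and 158 and 129, 135, 144 and 139 in WT ADX+DEX. The sign of its time difference was thus opposite in the 2 conditions, and the libraries of the 2 times did not overlap in either. The count was 2 without WT ADX ZT12 replicate 4 or WT ADX+DEX ZT0 replicate 4, 3 without WT ADX ZT0 replicate 1, WT ADX ZT12 replicate 6 or WT ADX+DEX ZT12 replicates 5 or 6, and 8 without WT ADX ZT12 replicate 7, WT ADX+DEX ZT0 replicate 2 or ZT12 replicate 8.

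The 8 assembly factors did not move as a block: at ZT0 3 fell in WT ADX and none rose, where 19.4% of tested genes fell and 32.0% were called in either direction, and at ZT12 1 was called (26.9% of tested genes). Ndufaf1, needed to build the membrane arm, went from 31.6, 31.7, 34.3 and 32.4 FPKM in WT sham ZT0 to 22.1, 26.4 and 25.6 in WT ADX ZT0 and fell by 0.40 ± 0.08 (adjusted p = 0.0003) without overlap. Ndufaf7, a methyltransferase, fell by 0.34 ± 0.06 and Ndufaf4, which works on the Q module, by 0.30 ± 0.09; the other 5 did not pass at ZT0, with changes from -0.17 (Ndufaf3) to 0.04 (Ndufaf6). At ZT12 none fell, and Ndufaf2, a relative of the subunit Ndufa12 that acts late in assembly, rose by 0.23 ± 0.08 (adjusted p = 0.162 without the libraries set apart). In RE-RE mice limma called 0 of the 8 at either time (2 at unadjusted p under 0.05 at ZT0 and 1 at ZT12), where 5.45% and 5.32% of tested genes were called. The genotype difference was called for 2 of the 8, Ndufaf1 (0.24 ± 0.08) and Ndufaf7 (0.22 ± 0.06), a share near the 22.5% of tested genes. Both missed the test without the libraries set apart (adjusted p = 0.115 and 0.0654).

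With adrenaline at ZT0, 5 of the 8 rose and 1 fell, where 51.1% of tested genes were called. Ndufaf3, a partner of Ndufaf4, rose by 0.71 ± 0.08, from 4.88, 4.62 and 4.92 FPKM in WT ADX to 7.12, 8.03, 8.66 and 7.64. Ndufaf5, which hydroxylates Ndufs7, rose by 0.47 ± 0.07, Ndufaf6, which acts early on the membrane arm, by 0.36 ± 0.09, Ndufaf1 by 0.36 ± 0.08 and Ndufaf7 by 0.18 ± 0.06. Ndufaf2 fell by 0.22 ± 0.09 (adjusted p = 0.0643 without the libraries set apart, none of which is in these groups). Dexamethasone gave the largest change of the 8 genes, in Ndufaf2: 12.8, 11.1 and 10.9 FPKM in WT ADX ZT0 against 7.55, 6.88, 6.39 and 7.43 with dexamethasone, a fall of 0.71 ± 0.09 without overlap, and a fall of 0.64 ± 0.08 at ZT12. Against WT sham over both times Ndufaf2 was also lower with dexamethasone (-0.55 ± 0.06) and not called with adrenaline (0.00). Ndufaf8, the partner of Ndufaf5, fell by 0.30 ± 0.08 with dexamethasone at ZT12. Ndufaf3 (0.64), Ndufaf1 (0.44), Ndufaf4 (0.44), Ndufaf5 (0.40) and Ndufaf7 (0.32) rose with dexamethasone at ZT0, so that 6 of the 8 were called there (68.9% of tested genes) and 7 at ZT12 (66.3%).

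Assembly factors differed by time of day in WT sham, where 6 of 8 were called, against 23.5% of tested genes. Ndufaf4 fell by 0.27 ± 0.09 from ZT0 to ZT12, Ndufaf2 by 0.27 ± 0.08, Ndufaf1 by 0.24 ± 0.08 and Ndufaf7 by 0.20 ± 0.06, while Ndufaf3 rose by 0.22 ± 0.08 and Ndufaf5 by 0.20 ± 0.07. Ndufaf1 stood at 31.6, 31.7, 34.3 and 32.4 FPKM at ZT0 and 30.1, 24.2, 28.4 and 27.8 at ZT12 in these mice. Without the libraries set apart, 1 in each of these groups, Ndufaf3 alone of the 6 was called (adjusted p = 0.0444); for the other 5 the adjusted p ran from 0.0692 to 0.272, with differences from -0.27 to 0.15. In WT ADX, Ndufaf3 rose by 0.34 ± 0.08 (11.0% of tested genes); in the other 4 conditions limma called 0 of the 8 (1 at unadjusted p under 0.05 in WT ADX+ADR, 2 at unadjusted p under 0.05 in WT ADX+DEX, 1 at unadjusted p under 0.05 in RE-RE sham and 1 at unadjusted p under 0.05 in RE-RE ADX). Between sham genotypes at ZT0, Ndufaf3 was higher in RE-RE (0.44 ± 0.08) and so was Ndufaf5 (0.23), and Ndufaf7 (-0.27) and Ndufaf8 (-0.22) were lower; at ZT12 Ndufaf3 was higher (0.27), 4 and 1 of the 8 against 24.1% and 19.3% of tested genes. Without the libraries set apart, Ndufaf5 (adjusted p = 0.107) and Ndufaf8 (0.293) were not called at ZT0, nor Ndufaf3 at ZT12 (0.142).

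Ndufa4 moved with the subunits and Ndufa4l2 against them. Ndufa4 stood at 645, 766, 757 and 762 FPKM in WT sham ZT0 and 599.8, 577 and 572 in WT ADX ZT0, and fell by 0.33 ± 0.08, and by 0.24 ± 0.07 at ZT12. It rose against WT ADX by 0.21 ± 0.08 and 0.26 ± 0.07 with adrenaline and by 0.34 ± 0.08 and 0.24 ± 0.07 with dexamethasone, at ZT0 and ZT12. Ndufa4l2 stood at 8.94, 10.7, 11.6 and 10.4 FPKM in WT sham ZT0 and 13, 15 and 12.3 in WT ADX ZT0, and at 8.23, 7.76, 7.79 and 7.9 against 11.5, 9.63, 13.2 and 12.3 at ZT12. It rose by 0.37 ± 0.12 (adjusted p = 0.0178) and 0.55 ± 0.11 (adjusted p = 0.000425). When the libraries set apart were left out, the rise at ZT0 missed the test (adjusted p = 0.0531). With adrenaline it fell by 0.42 ± 0.12 at ZT0 and 0.93 ± 0.11 at ZT12, and with dexamethasone by 0.95 ± 0.12 and 0.67 ± 0.11. It was lower at ZT12 than at ZT0 in WT sham (-0.38 ± 0.11) and in WT ADX+ADR (-0.72 ± 0.11), and the adrenalectomy change was smaller in RE-RE (-0.38 ± 0.12). Without the libraries set apart the time difference in WT sham had an adjusted p of 0.0775 and the genotype difference 0.104. Endothelial marker sums in WT ADX were 226 to 279.8 FPKM at ZT0 and 222 to 233 at ZT12. With adrenaline they were 154 to 168 at ZT0 and 175 to 257 at ZT12, and with dexamethasone 104 to 108 and 94.9 to 115. At ZT12 the adrenaline range thus held that of WT ADX. Cldn5, 1 of the 10 endothelial markers, ran from 0 to 97.4 FPKM over all libraries, so a single gene can move these sums. The part of these markers in the Ndufa4l2 values was not tested.

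As a measure of likeness, each gene's 12 group means were correlated with the median of the other subunits; the points share libraries and scaling, and the values are descriptions. Pearson's r had a median of 0.90 over the 36 subunits and reached 0.98 for Ndufb8, a distal-arm subunit, and 0.96 for Ndufa4. The 3 least alike were Ndufb2 (0.02), Ndufb3 (0.35) and Ndufc1 (0.66), all small membrane-arm subunits. Ndufb2 stood at 8.06 ± 0.466 FPKM (SD, n = 4) in WT sham ZT0, 7.42 ± 0.432 (n = 3) in WT ADX ZT0, 6.96 ± 0.44 (n = 4) in WT ADX+DEX ZT0 and 9.34 ± 0.451 (n = 4) in RE-RE sham ZT12, its highest group. Ndufb3 fell in WT ADX at ZT0 (-0.21 ± 0.07; adjusted p = 0.078 without the libraries set apart) but was lowest in WT ADX+ADR ZT0, at 85.9 ± 4.86 FPKM (n = 4), and highest in WT sham ZT0, at 104 ± 8.45 (n = 4). Ndufc1 fell at both times in WT ADX (-0.20 and -0.21; adjusted p = 0.0786 and 0.0515 without the libraries set apart) and was not called with either agent against WT ADX (0.06, 0.15, 0.13 and 0.06). Among the others, r was -0.87 for Ndufa4l2, -0.59 for Ndufaf2 and -0.40 for Ndufaf8.

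Other genes of the pathway were read from lists, to be set against the 19.4% of tested genes that fell in WT ADX at ZT0 and the 16.6% at ZT12. Of 7 complex I subunits encoded in mitochondrial DNA, 5 fell in WT ADX at each time, with -0.57 ± 0.09 for mt-Nd1 and -0.69 ± 0.11 for mt-Nd5 at ZT0; mt-Nd3 and mt-Nd6 were not called, and mt-Nd3 and mt-Nd4l averaged only 1.55 and 1.27 FPKM. Their summed FPKM was 31972 to 32584 in WT ADX ZT0 against 46910.0 to 50449 in WT sham ZT0. In RE-RE mice limma called 0 of 7 at either time (0 at unadjusted p under 0.05 at ZT0 and 1 at ZT12), where 5.45% and 5.32% of tested genes were called. Of 10 measured assembly factors without the Nduf name, 7 fell at ZT0 and 6 at ZT12, among them Dmac2, a distal-arm factor (-0.59 ± 0.07 and -0.48 ± 0.06), and none rose. Of 39 nuclear subunits of complexes II to V, 35 fell at ZT0 and 25 at ZT12, and of 11 citrate cycle enzymes 11 and 10. In RE-RE ADX ZT0, 1 of the 39 and 1 of the 11, Ogdh, fell, where 3.89% of tested genes fell. At ZT12 limma called 0 of the 39 and 0 of the 11 (3 and 2 at unadjusted p under 0.05), where 5.32% of tested genes were called. With shares this low, a count of 0 or 1 says little about a list. The falls were thus not limited to complex I. Of 11 measured genes that handle NADH or membrane potential, Nnt among them, 7 fell at each time in WT ADX and 1 rose at ZT0, where 12.6% of tested genes rose.

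Among 17 regulators of mitochondrial genes, 10 fell at ZT0, and 7 fell and 1 rose at ZT12, where 19.4% and 16.6% of tested genes fell and 10.3% rose at ZT12. Ppargc1a, the coactivator PGC-1 alpha, changed by -0.61 ± 0.12 at ZT0 and -0.39 ± 0.11 at ZT12, and Esrra, an estrogen-related receptor, by -0.65 ± 0.09 and -0.39 ± 0.08. Ppara, a lipid-sensing receptor, fell by 2.42 ± 0.24 and 1.79 ± 0.22, from 1.82 to 0.315 FPKM at ZT0. In RE-RE mice Ppargc1a fell at ZT0 (-0.61 ± 0.11, limma adjusted p = 0.00217), and the difference of Esrra was -0.01 ± 0.08. Nrf1 (0.04 at ZT0) and Tfam (-0.03) were not called in WT ADX. The part of these regulators in the subunit changes was not tested.

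Reads of some members can be shared with copies elsewhere in the genome, and how such reads were counted is not given in the sources used here. The share of 60-base runs that also occur in another annotated gene was highest for Ndufb4 (36.3%), Ndufs3 (34.3%) and Ndufb6 (33.0%), so their levels are uncertain. Of the 26 subunits with at most 10% of runs shared, 20 fell in WT ADX at ZT0 and 19 at ZT12, and the genotype difference was above 0 and past the test for 18.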

How the data were processed

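RNA of 47 whole tibialis anterior muscles, 1 mouse each, was read as 60-base single-end reads, 25 M on average, per the labels' protocols. The submitters' processing notes name the build GRCm38, edgeR 3.30.0, featureCounts 1.6.2, HISAT2 2.1.0, Trim Galore 0.5.0 and FastQC 0.11.8, with no order. The authors deposited log2 values of FPKM with 0.01 added, 1 column per mouse; strand setting, annotation and treatment of reads with several matches are not given in the sources used here. Depth per value is unknown, so no count test was used.

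Of 13500 gene IDs, 13446 matched a symbol in GENCODE M21. limma 3.58.1 (R 4.3.3) fitted the deposited log2 values with 12 group means and a mean-variance trend over 47 libraries, for the 12000 genes with at least 1 FPKM in at least 3 libraries. p-values were adjusted by Benjamini and Hochberg over all tested genes in each comparison, and called at 0.05. FPKM values in the text are the deposited values after undoing the logarithm. Tables were made with Python 3.11.15, pandas 2.3.3 and numpy 2.4.6. Tested on data simulated for the ZT0 comparison of WT ADX with WT sham (12000 genes), the fit called 27% of genes changed by 0.3 and 66% of those changed by 0.6 on the log2 scale, and 15 of 11800 unchanged genes. Only 100 genes were changed by each size, drawn from all tested genes, where the measured data gave calls for 32.0%. The adjustment is stricter when few genes change, so these shares do not give the power for the subunits.

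Any member could be named. Given in full were the core subunits, in each comparison the 3 called subunits with the smallest adjusted p and the 3 with the largest change, subunits called against the median, the 3 least like the others, all Ndufaf genes, Ndufa4 and Ndufa4l2; 1 member that enters the counts and medians is not reported here by itself. Members and lists were chosen with earlier results of these data known. Alternatives were an offset of 1 FPKM, no filter, equal library medians, age as a covariate, only the groups compared, a replicate block, leaving out the 7 libraries set apart, and leaving out each mouse in turn.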

Additional observations from a re-analysis of the deposited data

Results flagged for a closer look

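In 154 sets of 4 mice of a group, over 14 genes or measures, 10 values stood far from those of the other mice of their group. Chance alone flags about 1 set in 20, a share close to this one. Several of the 10 values came from the same mouse, and the measures are not independent. The median subunit deviation of WT sham ZT0 replicate 1 was -0.13, and that mouse also had the lowest Ndufa4, 645 FPKM against 757 or more. RE-RE ADX ZT12 replicate 8 stood apart for 5 genes: Ndufv2 (185 FPKM), Ndufs1 (78.9 FPKM), Ndufa4 (748 FPKM) and Ndufaf1 (34.2 FPKM) were highest there and Ndufa4l2 (7.68 FPKM) lowest. Ndufv1 was low in RE-RE ADX ZT0 replicate 2 (144 FPKM), Ndufs1 high in WT ADX+DEX ZT0 replicate 4 (82.3 FPKM) and Ndufaf1 high in WT ADX ZT12 replicate 4 (26.4 FPKM).

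Responses differed between groups in a pair of comparisons, each by a test of the difference itself. The adrenalectomy change differed between RE-RE and wild type for 28 of 36 subunits, all higher in RE-RE, where 13.8% of tested genes were higher and 22.5% called in either direction, by 0.30 for Ndufa10, 0.31 for Ndufs8 and 0.33 for Ndufs7 on the log2 scale; without the 7 libraries set apart 12 were called, with a median over the 36 of 0.21. The ZT12 minus ZT0 difference in WT ADX+DEX minus that in WT ADX was called for 5 of 36 subunits, a smaller share than the 17.2% of all tested genes, at -0.36 for Ndufs8, -0.31 for Ndufs7 and -0.21 for Ndufs4. The number was 2 to 8 with 1 mouse left out and 0 with a replicate block.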

How the results depend on the processing

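With an offset of 1 FPKM or no filter, all 22 counts of called subunits stayed within 1.5 times. With age as a covariate, 7 subunits were called for WT ADX against WT sham at ZT12 (median -0.14), 4 for time in WT ADX, 1 for time in WT ADX+DEX, 1 for the time difference of WT ADX minus WT sham and 9 for that of WT ADX+DEX minus WT ADX. With equal library medians, time in WT ADX+DEX gave 1 and the dexamethasone time difference 3. With only the groups compared, time gave 0 in WT ADX and 1 in WT ADX+DEX, and RE-RE against WT sham at ZT0 gave 1. Without the 7 libraries set apart, the genotype difference of the adrenalectomy change gave 12, time 0 in WT sham and 1 in WT ADX+DEX, RE-RE against WT sham 0 at ZT0 and 1 at ZT12, and the dexamethasone time difference 3. The cause of these shifts was not tested.

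Little sign was seen that replicate numbers pair the mice: of 56 same-numbered pairs 6 had correlated deviations over 0.1, and none of 16 pairs of groups had all of them over it. For WT sham with WT ADX at ZT0 the correlations were 0.22, -0.02 and 0.18. Pairs with different numbers were not compared, so this check cannot decide whether mice were paired. A replicate block fitted on only the groups compared gave, for adrenalectomy in wild type, 0 subunits at ZT0 and 2 at ZT12, 6 for adrenaline at ZT12, 0 and 0 for RE-RE against WT sham, and 0 for the dexamethasone time difference. This fit has fewer mice and degrees of freedom.

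Leaving out 1 mouse at a time gave 0 to 3 subunits for time in sham-operated wild type, and 1 to 4 for time in WT ADX. For time with adrenaline it gave 0 to 3, with dexamethasone 0 to 2, and for RE-RE sham 0 to 1. It gave 3 to 6 and 1 to 3 for RE-RE against WT sham at ZT0 and ZT12, 9 to 15 for adrenaline against WT sham, 0 to 1 for the time difference of WT ADX minus WT sham and 2 to 8 for the dexamethasone time difference. The direction turned in WT sham time without ZT12 replicate 7 (1 subunit), and in adrenaline against WT sham without WT sham ZT0 replicate 1 or WT ADX+ADR ZT12 replicate 7 (11 subunits each). Adrenalectomy in wild type gave 24 to 34 at ZT0 and 19 to 29 at ZT12.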
